A study of Mus musculus with 12 samples.

Results

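The miR-200 family comprises 5 microRNAs, mmu-miR-200a, mmu-miR-200b, mmu-miR-200c, mmu-miR-141 and mmu-miR-429 (named without the species prefix from here on), and all 5 were carried by the arrays, which held 650 entries (611 of mouse and 39 of herpesviruses). The members were taken by name, as the mature strand without a star. Expression was measured in mouse liver with one-colour Agilent miRNA arrays, 1 array for each of 12 collection times, every 4 h from ZT18 to ZT62, where zeitgeber time (ZT) counts the hours from a lights-on. The mice were adults, with no age, sex, strain or allele given, kept under lights on for 12 h of each day and given free food and water, and each array carried the pooled RNA of 2 livers. The 6 dark arrays were ZT18, ZT22, ZT38, ZT42, ZT46 and ZT62, and the 6 light arrays were ZT26, ZT30, ZT34, ZT50, ZT54 and ZT58. All mice stayed in the light-dark schedule, so a daily change driven by the light and one driven by the internal clock cannot be told apart. The array is the unit of every test, and its p-values cover differences between pools and between hybridisations, not those between individual animals.

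MicroRNAs repress messenger RNAs that carry a match to the seed, the bases near their 5′ end. The miR-200 family is a hallmark of epithelial cells: its best known targets are Zeb1 and Zeb2, repressors of the epithelial cadherin gene Cdh1, and loss of the family accompanies the epithelial-mesenchymal transition. In liver the family is known mainly from the epithelium of the bile ducts, which makes up a small share of the organ, while hepatocytes make up most of it. The arrays measured whole liver, so fewer cells of a type and less RNA per cell cannot be told apart.

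The 5 mature sequences are shown because they split the family in 2 ways, by seed and by gene cluster. They were taken from RefSeq (mouse build GRCm38.p6), where each array name matched the 3p strand of its hairpin, for 5 of 5 members. Capitals mark the seed, bases 2 to 8.
miR-200b: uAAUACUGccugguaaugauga
miR-200c: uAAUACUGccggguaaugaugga
miR-429: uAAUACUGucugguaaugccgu
miR-200a: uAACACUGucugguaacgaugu
miR-141: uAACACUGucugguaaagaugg
The first 3 share the seed AAUACUG, whose complementary site in a target reads CAGUAUU, and the last 2 share AACACUG, whose site reads CAGUGUU. None of the other mouse sequences among the 1738 in the table carried either seed. The seeds differ by the single base C4U, counted from 1 at the 5′ end, with the base of miR-200a first and that of miR-200b last.

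By position the split is different. Mir200b, Mir200a and Mir429 lie together on the minus strand of chromosome 4, with their mature strands at chr4:156055685-156055706, chr4:156054911-156054932 and chr4:156053916-156053937, and the 3 hairpins span 1846 bases. No coding gene overlapped them. The noncoding gene Gm13648 did, and the nearest coding genes were Ttll10 and 9430015G10Rik. Mir200c and Mir141 lie on the minus strand of chromosome 6, at chr6:124718324-124718346 and chr6:124717917-124717938, within 477 bases and between the coding genes Phb2 and Ptpn6. Each cluster therefore holds both seeds. MicroRNAs so close together are commonly cut from a shared primary transcript.

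A pair of hairpins, one of each cluster and both of the same seed, shows where the measured strand lies. Capitals mark the mature 3p strand, and the star strand, which had probes of its own for 4 of the 5 members, comes from the opposite arm.
Mir200b: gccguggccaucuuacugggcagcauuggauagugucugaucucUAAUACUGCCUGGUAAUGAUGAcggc
Mir200c: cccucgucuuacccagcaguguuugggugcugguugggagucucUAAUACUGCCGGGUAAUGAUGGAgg
Members of different clusters can be nearly the same molecule. Over 22 aligned bases miR-200a and miR-141 differ at 2 (C17A and U22G), and miR-200b and miR-200c also at 2 (U11G and A22G). Within the chromosome 4 cluster, miR-200a and miR-200b differ at 4 (C4U, U9C, C17U and U22A).

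Only members of the chromosome 4 cluster were called detected. Only miR-200a and miR-200b had most spots of a probe well above background, miR-429 stayed at the edge of detection, and neither miR-200c nor miR-141 was detected on any of the 12 arrays by the scanner software's call per miRNA. That call marked miR-200a as detected on 10 arrays (not ZT50 and ZT62), miR-200b on 11 (not ZT50) and miR-429 on 2 (ZT22 and ZT42). Every member had 2 probes of 10 spots each, and the brighter probe stands for the member below. Intensities were scaled between arrays, and values under a floor of 21.9 array units, the typical lowest signal of a detected probe, have no order in the tests on the log2 scale. Levels of different members come from different probes and were not compared with each other. Whether the probes of different members are equally sensitive was not tested. Nor was it tested how far the probes of miR-200a also read miR-141, or those of miR-200b also miR-200c.

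miR-200a has the seed whose site in a target reads CAGUGUU. It read 28.9 array units at ZT18, 48.7 at ZT22, 21.98 at ZT26, 22.9 at ZT30, 23.1 at ZT34 and 25.6 at ZT38. In the rest of the series it read 35.0 at ZT42, 23.2 at ZT46, 24.01 at ZT50, 20.4 at ZT54, 18.8 at ZT58 and 17.9 at ZT62, the last 3 below the floor. ZT22 stood highest and ZT42 second, while all 6 light arrays lay within the narrow range of 18.8 to 24.01.

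miR-200b has the seed whose site in a target reads CAGUAUU. It read 31.1 at ZT18, 48.8 at ZT22, 21.6 at ZT26, 27.3 at ZT30, 29.5 at ZT34 and 28.1 at ZT38. It then read 35.5 at ZT42, 22.8 at ZT46, 25.6 at ZT50, 22.7 at ZT54, 21.5 at ZT58 and 21.2 at ZT62, with ZT26, ZT58 and ZT62 below the floor. The same pair of arrays, ZT22 and ZT42, was highest, and its light arrays reached from 21.5 to 29.5.

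**Figure D1:**
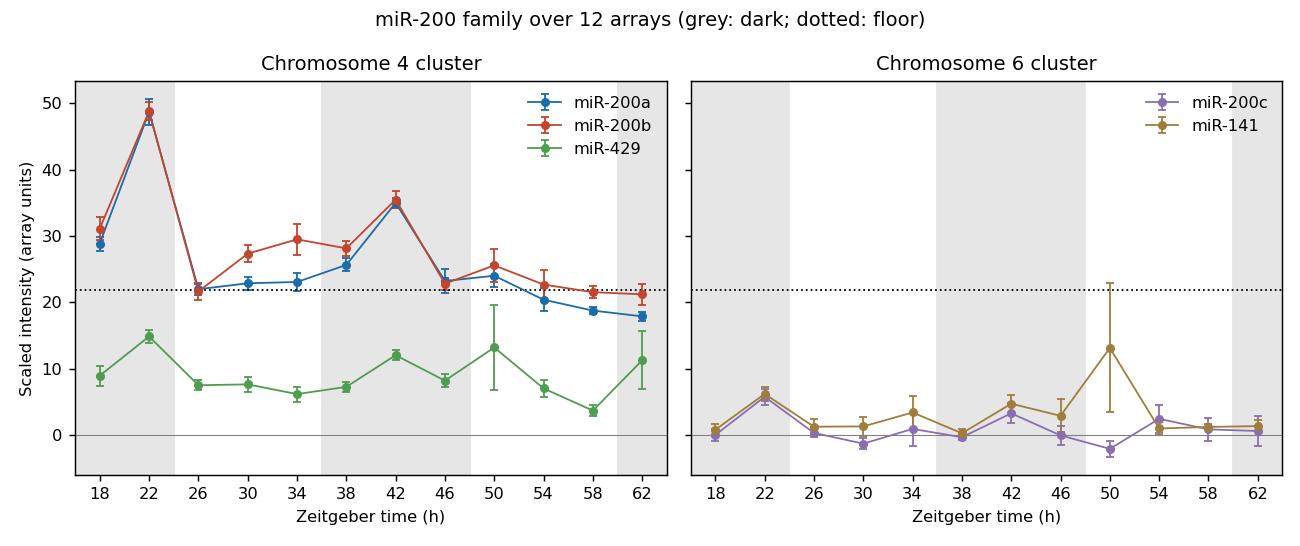
Scaled intensity (array units) against zeitgeber time (hours) of the 5 members, with the chromosome 4 cluster on the left and the chromosome 6 cluster on the right. Points are the mean over the spots of the brighter probe on 1 array, bars the standard error over those spots, grey the dark hours and the dotted line the floor of 21.9. The miR-200a and miR-200b lines share their highest array, ZT22 at 48.7 and 48.8, and the lines of miR-200c and miR-141 stay under the floor throughout.

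miR-429, the third product of the cluster, lay below the floor on all 12 arrays, from 3.68 at ZT58 to 14.9 at ZT22, with a median of 7.91. Its next readings were 13.2 at ZT50, 12.0 at ZT42 and 11.3 at ZT62, so 2 of its 4 highest arrays were on the second slide. It was detected on too few arrays to enter the tests across entries. Apart from its correlations with miR-200a and miR-200b below, its values are given as readings only.

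The chromosome 6 members read near 0. The probe of miR-200c gave -2.09 to 5.76 array units, with a median of 0.453, and 0 of its 115 spots was well above background. Its dimmer probe had 3 such spots of 114. For miR-141 the range was 0.257 to 13.1, the median 1.32, and 1 of 105 spots was well above background, with 0 of 111 on the dimmer probe. Only a bound exists for these members, and no fold was computed.

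The star strands gave no signal either. Those of miR-200a, miR-200b, miR-200c and miR-141 were detected on 0 arrays, and miR-429* was not among the entries. At most 2 spots of any star probe, out of 56 to 83, were well above background over all arrays.

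The software decides spot by spot what is well above background, and for miR-200a and miR-200b the share of such spots differed between the slides. The 8 arrays from ZT18 to ZT46 shared slide 1 and the 4 from ZT50 to ZT62 shared slide 2. Slide 2 thus held the last 4 collection times, and slide and collection time cannot be told apart. Over all spots that were not controls, the share was 16.5% to 19.6% on slide 1 and 16.9% to 18.9% on slide 2. The main probe of miR-200a had 56 of 73 spots well above background on slide 1 and 0 of 35 on slide 2. The main probe of miR-200b had 60 of 74 and 0 of 33. Spots also failed within slide 1: at ZT46 2 of 9 passed for miR-200a and 0 of 9 for miR-200b. At ZT34 1 of 8 passed for miR-200a. Elsewhere on slide 1 most spots of both main probes passed. The lowest signal well above background was 17.6 to 27.1 array units on the slide 1 arrays and 26.1 to 42.8 on those of slide 2, so the levels read on slide 2 could not be told from background. On slide 2 the call per miRNA still marked miR-200a on 2 of 4 arrays and miR-200b on 3, with no spot of the main probe passing.

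**Figure D2:**
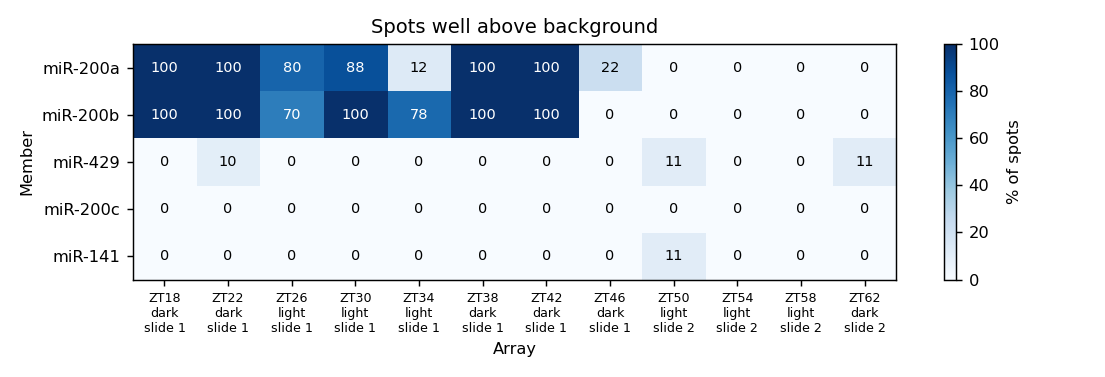
Share of spots well above background (percent, printed in each cell and shaded) for the brighter probe of each member (rows) on each of the 12 arrays (columns, with light and slide). The rows of miR-200a and miR-200b are dark on most slide 1 arrays and read 0 on all 4 slide 2 arrays, and the other rows hold at most 1 passing spot per array.

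Both tested members were highest at ZT22. For miR-200a the main probe had most of its spots well above background on 5 other arrays, and ZT22 was 1.39-fold (over ZT42) to 2.22-fold (over ZT26) higher than these. For miR-200b there were 6 such arrays, and ZT22 was 1.38-fold (over ZT42) to 2.26-fold (over ZT26) higher. The array 24 h later, ZT46, did not repeat it: miR-200a read 48.7 and then 23.2, with 2 of 9 spots well above background at ZT46. For miR-200b no spot at ZT46 was well above background. Its 48.8 at ZT22 was at least 1.80-fold higher than the 27.1 that the ZT46 array could still resolve. At ZT50 the lowest signal well above background was 42.8, so ZT22 was there known only to be at least 1.14-fold higher, for both members. Among the 139 tested entries 29 (20.9%) were highest on ZT22, but for 4 (2.88%) ZT22 was both highest and at least 1.5 times the median of the 12 arrays. That ratio, of measured intensities with the floor, was 2.11 for miR-200a and 1.85 for miR-200b, and both medians include arrays on which the probe was not resolved from background. These 4 were miR-200a, miR-200b, miR-199b* and miR-802, the last a hepatocyte-enriched microRNA that read 88.3 at ZT22 and 22.8 at ZT46, named here after its values were seen. The median over all tested entries of the ratio of ZT22 to the median array was 1.

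The second probe of the chromosome 4 members was dimmer, with few spots well above background (7 of 111 for miR-200a, 1 of 113 for miR-200b and 1 of 109 for miR-429), and over the slide 1 arrays it too read highest at ZT22. For miR-200b the second probe was highest at ZT22 (16.8), as was that of miR-429 (13.6). For miR-200a the second probe read highest at ZT50 (20.7), with ZT22 next. Over the 8 arrays of slide 1 the 2 probes had r = 0.958 for miR-200a, 0.9498 for miR-200b and 0.600 for miR-429. Over all 12 arrays r was 0.620, 0.779 and 0.428. Probes of a member share the array and its RNA, and these correlations are descriptions.

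Among the tested entries the spread of the 2 members over arrays was wide. The SD of the log2 value was 0.35 for both, the 8th and 9th largest of 139, against a median of 0.10. Every entry with a larger SD was dim too, with a mean of 23.1 to 54.7 array units, and at the floor on 1 to 6 arrays. The means of miR-200a and miR-200b were 25.9 and 28.0, with 3 arrays at the floor for each. How much of their spread is noise near the floor was not tested. The number of tested entries whose highest array was at least 1.5 times the median was 21 (15.1%), and both members were among them.

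miR-200a and miR-200b moved together over the arrays. On the log2 scale with the floor, Pearson's r was 0.944 (permutation p = 3e-05, two-sided, 100000 draws, n = 12) and Spearman's rho was 0.894 (permutation p = 0.00025). Without ZT22 and ZT42, the arrays farthest from the median of miR-200a, r was 0.788, and without ZT22 alone it was 0.866. Within slide 1 r was 0.938 (n = 8). Slide 2 gave no usable value, since miR-200a was at the floor on 3 of its 4 arrays. Only 2 of 7021 pairs among the 119 entries that varied and were rarely at the floor (0.0285%) had an r this high, that of miR-200a and miR-200b included, and the median pair had r = 0.164. Without ZT22, 0.755% of the pairs had an r at or above the 0.866 of the 2 members. Over all 12 arrays, miR-200a and miR-200b were each the entry most like the other. The 2 probes lie on the same arrays, and how far each also reads the other member, with 4 of 22 bases different, was not tested.

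The relation of miR-429 to the other members of its cluster rested on few arrays. All its readings lay below the floor. On the scale without a floor, an alternative added after seeing the data, miR-429 had r = 0.676 with miR-200a (permutation p = 0.0129, adjusted p = 0.0193 over 3 pairs, n = 12) and rho = 0.573 (permutation p = 0.0559). With miR-200b it had r = 0.619 (permutation p = 0.0297, adjusted p = 0.0297, n = 12) and rho = 0.406 (permutation p = 0.191). Without ZT22 and ZT42 these r fell to 0.181 and 0.0385, so both relations rest on those arrays. Within slide 1 they were 0.962 and 0.876 (n = 8). On slide 2, ZT50 and ZT62 read 13.2 and 11.3 for miR-429, with 1 of its spots well above background on each.

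**Figure D3:**
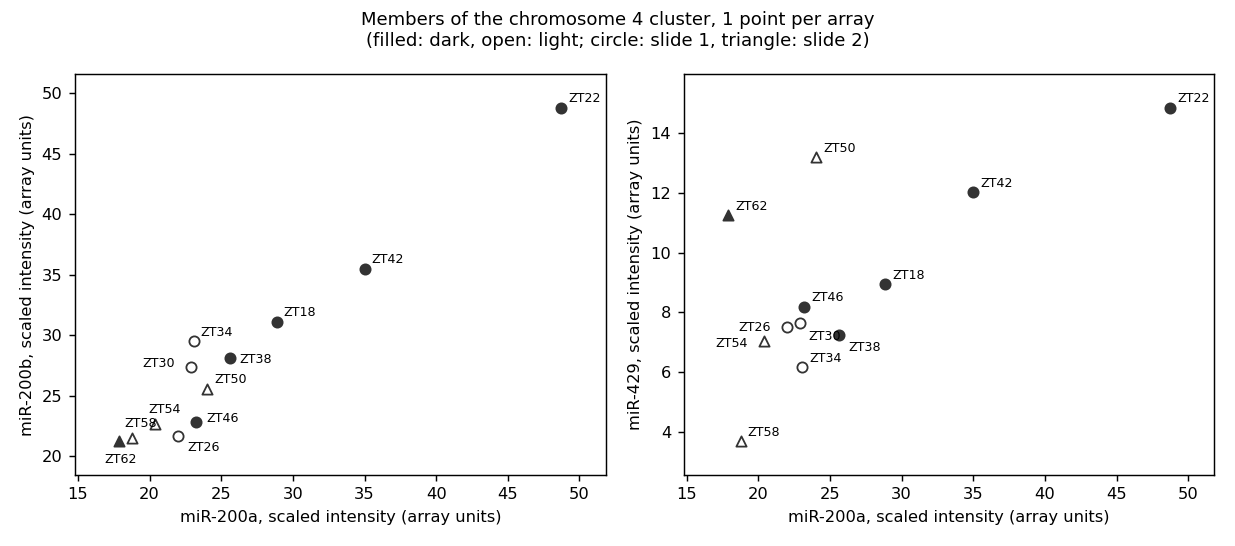
Scaled intensity (array units) of miR-200b (left) and miR-429 (right) against that of miR-200a, 1 labelled point per array, with filled symbols for dark, open for light, circles for slide 1 and triangles for slide 2. The left panel is nearly a line ending in ZT42 and ZT22. In the right panel ZT22 is highest (14.9), followed by ZT50 (13.2), ZT42 (12.0) and ZT62 (11.3), with ZT50 and ZT62 on slide 2.

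The series asked whether microRNAs of the liver change over the day, and the first question for the family was whether it differed between dark and light. miR-200a read 29.9 ± 10.9 array units in the dark and 21.8 ± 1.94 in the light (mean ± SD, n = 6 each), with 4 dark arrays above every light array, 1 within their range and 1, ZT62, below it. On the log2 scale the difference was 0.38, a fold of 1.30 (95% interval 1.00 to 1.69). Its p in limma was 0.0491 before and 0.585 after Benjamini-Hochberg adjustment over the 139 tested entries. The exact two-sided permutation test over arrays gave p = 0.0779, where the smallest p of the 924 assignments is 0.00216. The difference thus did not pass. Without ZT22 it was 0.23.

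miR-200b read 31.3 ± 10.1 in the dark and 24.7 ± 3.29 in the light, with 3 dark arrays above every light array. The log2 difference was 0.29, a fold of 1.23 (95% interval 0.926 to 1.62), with an adjusted p of 0.740 in limma and an exact permutation p of 0.156. Dark and light arrays overlapped for both. Below the floor, miR-429 read 7.26 to 14.9 in the dark and 3.68 to 13.2 in the light. For miR-200c the readings were -0.339 to 5.76 and -2.09 to 2.44, and for miR-141 they were 0.257 to 6.19 and 0.980 to 13.1. No p-value for dark against light is given for these 3 members, since all their readings lay below the floor. Over all tested entries, 0 of 139 (0.0%) passed the adjusted threshold, 11 (7.91%) had an unadjusted p under 0.05, and 1 (0.719%) had dark and light arrays that did not overlap.

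The slide touched this comparison, since 3 of the 4 slide 2 arrays were light. With slide as a block the log2 difference was 0.32 for miR-200a and 0.19 for miR-200b, and within slide 1 it was 0.46 and 0.31, with limma adjusted p-values of 0.875, 0.877, 0.923 and 1. Slide 2 held a single dark array. The processing touched it more. Over all tested entries the median dark minus light difference was -0.02, and scaling to the 75th percentile of all probes moved it to 0.38. Relative to that median, miR-200a lay 0.40 and miR-200b 0.32 higher as scaled here, but 0.04 and 0.02 higher under the all-probe scaling, where their own differences were 0.41 and 0.39. With Agilent's total gene signal in place of the probe mean, the median was near 0 and the members lay 0.81 and 0.73 higher, with limma adjusted p-values of 0.593 for both. With the floor set 2 times higher, both differences were 0.03. With a normexp background correction the median was -0.36 and both members were lower in the dark, by -0.34 and -0.37. Relative to that median, miR-200a lay at 0.02 and miR-200b at -0.01. Under normexp the light array ZT58 read 513 for miR-200a and 514 for miR-200b, against 107 for each on ZT22, their next highest. The undetected miR-200c and miR-141 read 510 and 509 on ZT58. The normexp differences include this array, and dark minus light under normexp without it was not tested. The direction of dark minus light of each member was thus the same under 11 of 12 alternatives of scaling, summary, filter, floor, spots and slide, and flipped under normexp.

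A 24-h cosine was fitted next. For miR-200a the fitted peak-to-trough fold was 1.55, with the maximum at 19.98 h after lights on, late in the dark, and the 95% limit reached up to 2.44 (adjusted p = 0.849 in limma). For miR-200b the fold was 1.39 with the maximum at 19.6 h and a limit of 2.34 (adjusted p = 0.957 in limma). The clock times next to these maxima, 18 and 22 h, had both arrays on slide 1, and every other clock time had its second array on slide 2. A permutation test over the 12 time labels gave p = 0.0407 for miR-200a and 0.281 for miR-200b, or 0.991 and 1 after adjustment. The folds rest partly on values at the floor, 3 arrays for each member, and their upper limits are therefore not bounds on the true change. Over all entries, 0 of 139 (0.0%) passed, and 5 (3.6%) had an unadjusted p under 0.05. No rhythm was detectable in either member, and these limits do not say how large a missed change could be.

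By clock time, miR-200a was ordered 22, 18, 2, 14, 6 and 10 h after lights on by the mean of its 2 arrays. The top of the order is loose: at 22 h the arrays read 48.7 and 23.2, at 18 h 28.9 and 35.0. Below them, 2 h read 21.98 and 24.01, 14 h 25.6 and 17.9, 6 h 22.9 and 20.4, and 10 h 23.1 and 18.8, and no neighbours in these last 4 differed beyond their spread. The 2 arrays at 18 h lay above both arrays of 2, 6, 10 and 14 h. For miR-200b the order was 22 h (48.8 and 22.8), 18 h (31.1 and 35.5), 10 h (29.5 and 21.5), 6 h (27.3 and 22.7), 14 h (28.1 and 21.2) and 2 h (21.6 and 25.6). Again both 18 h arrays lay above both arrays of 2, 6, 10 and 14 h, whose ranges overlapped each other. Both arrays of 18 h and of 22 h were on slide 1, while 2, 6, 10 and 14 h had their second array on slide 2. The order of the clock times is therefore mixed with the slide. Over the 6 clock times the fitted span was 1.504-fold for miR-200a and 1.41-fold for miR-200b, with limma adjusted p-values of 0.805 and 0.865. Among all entries 0 of 139 (0.0%) passed and 6 (4.32%) had an unadjusted p under 0.05. For miR-429 the means were highest at 22 h (14.9 and 8.19) and lowest at 10 h (6.17 and 3.68), all below the floor.

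**Figure D4:**
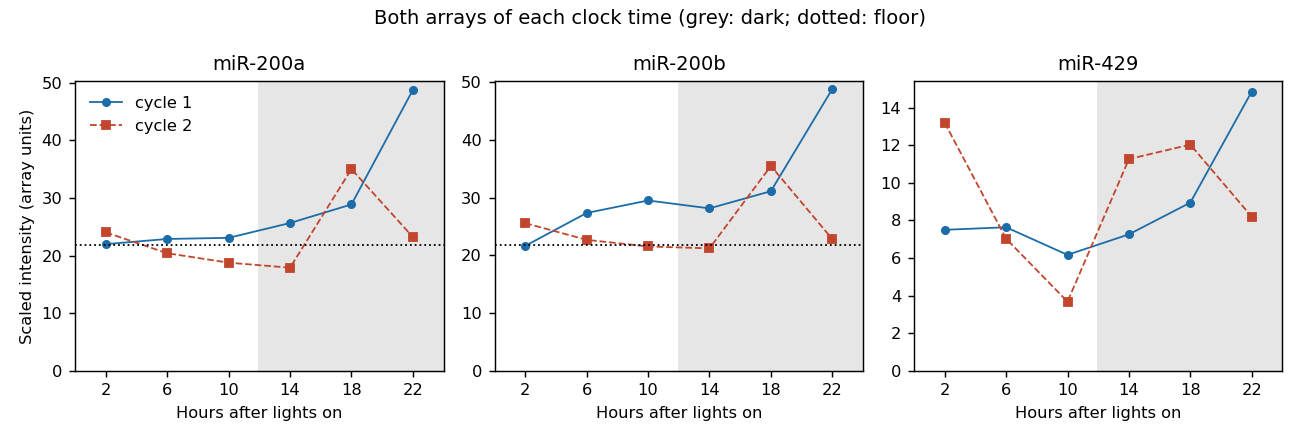
Scaled intensity (array units) against hours after lights on for the chromosome 4 members, with the first array of each clock time (cycle 1, ZT18 to ZT38, circles) and the second, 24 h later (cycle 2, ZT42 to ZT62, squares). Grey marks the dark, and the dotted line the floor where it is in range. The lines cross at 18 to 22 h for miR-200a and miR-200b, where cycle 1 read 48.7 and 48.8 at 22 h and cycle 2 read 23.2 and 22.8.

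The second cycle against the first gave a log2 difference of -0.17 for miR-200a, a fold of 0.887 (95% interval 0.655 to 1.20), and -0.29 for miR-200b, a fold of 0.817 (0.599 to 1.12), both with an adjusted p of 0.866 in limma. In all, 0 of 139 entries (0.0%) passed and 5 (3.6%) had an unadjusted p under 0.05. The cycle overlaps with the slide: 4 of the 6 arrays of cycle 2 were on slide 2 and none of cycle 1. Without either ZT22 or ZT46 the difference of miR-200a was 0.0067, with the opposite sign.

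The entries most like the members over the arrays were named by rule, the 3 with the highest r among 117 candidates. For miR-200a they were miR-199b* (r = 0.857), miR-27a (0.845) and miR-199a-5p (0.814). For miR-200b they were miR-199a-5p (0.882), miR-199a-3p (0.856) and miR-199b* (0.836). Each was highest on ZT22, and without that array r fell to between 0.576 and 0.7499. The level of miR-199a-3p was 147 at ZT22 and 107 at ZT46, that of miR-199a-5p 45.9 and 35.4, that of miR-199b* 47.8 and 29.1, and that of miR-27a 237 and 204. These are likenesses over 12 arrays that share their RNA pools.

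The miR-199 family is known from mesenchymal cells, and in liver from stellate cells, which lie along the sinusoids. Of the 6 mesenchymal markers listed, 4 were tested (miR-143, miR-199a-3p, miR-199a-5p and miR-199b*), and all 4 were highest on ZT22, at 1.28 to 1.67 times their median. Over all tested entries, 29 of 139 (20.9%) were highest on ZT22. The miR-199 entries are 1 family and are those named above for their r with the members, so their high ZT22 is not separate evidence. The summed level of the list was 208 to 244 array units in the light, 213 to 323 in the dark and 323 at ZT22. None passed a test (0 of 4), and the defining smooth muscle microRNA miR-145 was detected on no array. The part of these cells in the ZT22 level of the miR-200 members was not tested.

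Markers of the other cell types a liver sample could hold were set beside the ZT22 level, with no test of a difference between lists. Of 5 hepatocyte entries, all detected on all 12 arrays, 2 were highest on ZT22, and their ratio to the median array ran from 0.966 to 3.53, the top value being that of miR-802. The hepatocyte-defining miR-122 read 29045 to 32662, and the endothelial miR-126-3p 1238 to 1373. Ratios at ZT22 were 0.9501 to 1.02 for the 2 endothelial entries, 0.852 to 1.11 for 4 leukocyte entries and 0.983 to 0.997 for 2 red cell entries. Their summed levels in light and dark were 34804 to 38498 and 34920 to 38379 for hepatocytes, 1327 to 1463 and 1325 to 1459 for endothelium, 464 to 575 and 459 to 541 for leukocytes, and 1420 to 2777 and 1408 to 2465 for red cells. The sum of the pancreas list stayed at or under 29.2, that of the neuron list at or under 10.5, and 0 of their 4 and 3 entries was detected. Among all 650 entries, 427 were detected on no array.

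For the label of an epithelial and bile duct signal, most of the other epithelial microRNAs listed were not detected. Of 14 listed entries on the array, which include the 4 star strands, 11 were detected on none of the 12 arrays, among them the squamous and glandular markers miR-205 and miR-375. Over all 650 entries, 427 were likewise detected on none, so this count alone says little about the label. The 2 that were tested were miR-203, at 61.2 to 72.3, and miR-31, and their ratios at ZT22 were 0.989 and 0.967. The summed level was 142 to 220 in the light and 138 to 168 in the dark. No called change stood in this list (0 of 2), and the arrays do not show in which cells the miR-200 members lay.

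**Figure D5:**
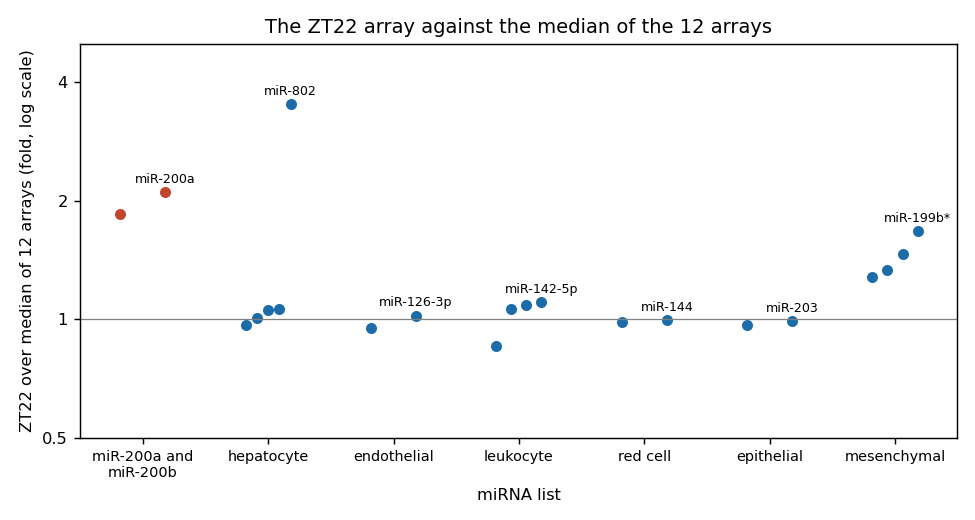
Level on the ZT22 array divided by the median of the 12 arrays (fold, log axis) for miR-200a and miR-200b (red) and for the tested entries of 6 marker lists (blue), 1 point per entry, with the highest of each list named. The 2 members lie at 1.85 and 2.11, over medians that include arrays not resolved from background, the 4 mesenchymal entries at 1.28 to 1.67, and all the others between 0.852 and 1.11 except miR-802 at 3.53.

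Probes for viral microRNAs gave a comparison of dim signals. Of 39 herpesvirus entries, 4 were called detected on at least 6 arrays: mghv-miR-M1-2, mcmv-miR-m88-1, mcmv-miR-m22-1 and mcmv-miR-M23-1-5p. Their median levels were 28.9, 83.9, 16.3 and 150 array units. None of the 4 was highest on ZT22, and mghv-miR-M1-2 read 27.0 there. The scaled mean of the negative control spots was 1.64 at ZT22, in a range of 1.13 to 3.56 over arrays with the highest at ZT50. The arrays detected 132 to 162 entries each, with 16.5% to 19.6% of spots well above background, no spot saturated, and scaling factors of 0.853 to 1.08.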

How the data were processed

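Spot intensities were deposited by the authors on a linear scale, background-subtracted within each array by Agilent Feature Extraction (10.7.3.1 per the file headers, 9.5.3.1 per the submitters' processing notes). Total RNA was extracted with TRIzol, per the labels' protocols. The deposited flags of each spot and the calls per miRNA were used as other values. The deposited series table of intensities equalled the scanner files (largest difference 0).

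Control and outlier spots (3.82% to 6.94% of an array) were left out, the spots of a probe averaged, and each array scaled to its 75th percentile, taken from the 157 probes that all 12 arrays detected. Each array's dimmest detected probe was found after scaling, and the median of these signals set the floor. The brightest probe stood for a miRNA. The 139 entries that 6 or more arrays detected entered the tests on the log2 scale with limma 3.58.1 (R 4.3.3), lmFit and eBayes with an intensity trend, with Benjamini-Hochberg adjustment and a threshold of 0.05. The models fitted were a 24-h cosine and sine, dark minus light, 6 clock times, and the cycle with clock time. Permutation tests of rhythm and correlation used numpy 2.4.6, with ranks from scipy 1.17.1, and the exact test of dark against light used R. Scripts were tested on simulated data.

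Named entries are the 5 members and their star strands, the 3 entries most alike to each tested member (at the floor on at most 3 arrays), herpesvirus entries detected on at least 6 arrays, and 5 markers. The members and lists were chosen with earlier results of these data known. Alternatives were other scalings, a normexp correction (offset 50, on the median signal, since the files used hold no mean signal), other summaries, filters and floors, outlier spots kept, the slide, and each array left out. No genome build is given in the sources used here for the array design.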

Additional observations from a re-analysis of the deposited data

Results flagged for a closer look

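One reading of the family stood apart from its group. miR-141 read 13.1 array units at ZT50, the highest of the 6 light arrays, and its distance to the next light array was 0.801 of the whole light range, above the critical value of 0.625. On that array 1 of 9 spots of the probe was well above background, and the software did not call the miRNA detected. Chance alone flags about 1 in 20 groups, and 10 groups (5 members, light and dark) were examined.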

How the results depend on the processing

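Neither tested member passed the adjusted threshold in any test under any alternative run, and neither was among the entries detected on all 12 arrays, so that filter gives no value for them. Testing without the filter was limited to entries above the floor on at least 1 array. Normexp turned dark minus light to -0.34 (miR-200a) and -0.37 (miR-200b) on the log2 scale and the cycle difference to 0.39 and 0.37, and made ZT58 the highest array of all 5 members. On ZT58 all 5 members then read 509 to 514, also miR-200c and miR-141, which were detected on no array. The normexp values of dark minus light and of the cycle include this array. ZT22 over the median under normexp was 1.19, 1.15 and 1.01 for miR-200a, miR-200b and miR-429. Leaving out ZT22 or ZT46 turned the cycle difference of miR-200a to 0.0067, in a range of -0.26 to 0.0067 over all such fits. Under normexp 1 entry passed the 24-h test and 1 the time of day, and within slide 1 alone 3 passed the time of day. With each array left out in turn, 0 to 2 entries passed dark minus light (2 without ZT30) and 0 to 8 the time of day (8 without ZT26, 2 without ZT46, 1 each without ZT54 and ZT58), and 0 to 0 the other tests. The cause of these changes was not tested. Under the processing alternatives the 24-h term of miR-200a ran from 0.05 (floor 2 times higher) to 1.21 (total gene signal) on the log2 scale. That of miR-200b ran from 0.05 to 0.96. Dark minus light ran from -0.34 to 0.81 for miR-200a and from -0.37 to 0.73 for miR-200b, with both lower ends under normexp. Leaving out arrays gave 0.23 to 0.46 and 0.15 to 0.39 for dark minus light of miR-200a and miR-200b, 0.41 to 0.80 and 0.29 to 0.64 for their 24-h terms, and an r of 0.866 to 0.944 between miR-200a and miR-200b. The smallest adjusted p of a member was 0.0657 (limma, time of day of miR-200a, without ZT46). ZT22 stayed highest for miR-200a, miR-200b and miR-429 under the other 4 scalings and summaries tabulated. Signal over background limits every value here, above all on slide 2.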
